A study of Mus musculus with 8 samples.

Results

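The 36 genes described here carry glucose into the cell and break it down. They include the glucose transporters, the hexokinases, the enzymes of upper and lower glycolysis, and the lactate enzymes and carriers. Others gate the use of pyruvate in mitochondria or belong to the pentose phosphate pathway, and 3 are tied to hypoxia or glucose sensing. All were taken by name from the 24054 gene rows of a table of estimated read counts, and not by a threshold on their values. All 36 names had a row, and 34 of them were among the 11291 genes with enough counts for a test. Hk3, the low-abundance hexokinase of blood cells, had 0 to 1 counts in each library and Pdk3, a pyruvate dehydrogenase kinase, had 0 counts in all 8, so neither was tested.

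Glycolysis splits glucose into pyruvate and yields ATP and NADH. Pyruvate is either reduced to lactate and exported, or used inside mitochondria by the pyruvate dehydrogenase complex, which the PDK kinases inhibit. A side branch, the pentose phosphate pathway, makes NADPH and ribose for nucleotides. In B cells, activation and growth are known to go with higher glucose use, and the transcription factors MYC and HIF1A are known to act on many of these genes.

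The cells were 2 stable derivatives of WEHI-231, a B cell lymphoma line of the mouse with the features of an immature B cell, whose growth stops when its surface IgM is crosslinked. WEHI-control and WEHI-miR-148a were each sampled without stimulation, and after treatment with anti-IgM, an antibody against that receptor, at 2 ug/ml for 14 h. No time is listed for the unstimulated cells, so a difference in time in culture cannot be told apart from an effect of anti-IgM. Each of the 4 groups had 2 libraries of polyA-selected RNA, numbered replicate 1 and replicate 2, and all cells grew in the same medium with fetal bovine serum. The labels do not say how WEHI-miR-148a was made, whether either line is 1 clone, or whether replicates came from separate cultures, so an effect of the microRNA cannot be told apart from other differences between 2 derived lines, and the spread behind each p-value is that of these libraries and may be technical.

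Library totals ran from 5810227 counts in control anti-IgM replicate 1 to 18660373 in control unstimulated replicate 1, so that 3 counts were worth between 0.166 and 0.502 CPM, a unit of counts brought to a common library size with edgeR's TMM factors. Levels below are CPM, and levels set between genes are CPM per kilobase of exon. Of 10 B cell markers 9 had a row, and the lowest of them, Ebf1, stood at 48.2 to 87.5 CPM, so these 9 markers of the labelled cell type were present. The marker without a row was Ighm, the heavy chain of IgM, so its transcript could not be checked. The Mir148a row held 0 counts in 7 libraries and 1 count in miR-148a unstimulated replicate 1, and polyA libraries do not measure a mature microRNA, so this row is no check of the line's label. The summed monocyte, macrophage and neutrophil list (9 of 10 with a row) was 0.922 to 2.08 CPM in the 4 unstimulated libraries, 4.52 to 7.74 CPM in the anti-IgM libraries of WEHI-control and 9.70 to 11.3 CPM in those of WEHI-miR-148a, with Lyz2, S100a8 and S100a9 at 0 in all 8. The summed T cell list (7 of 8 with a row) was 28.8 to 36.8 CPM unstimulated and 39.2 to 45.0 CPM with anti-IgM in WEHI-control, and 21.5 to 26.0 CPM and then 33.7 to 35.7 CPM in WEHI-miR-148a, with Cd3e at no more than 0.184 CPM in any library. Both sums were thus higher with anti-IgM without overlap in either line.

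Sequences are shown first, because the line's name points to a microRNA and because 5 of the promoters belong to members described below. The mature microRNA, as RefSeq gives it for build GRCm38.p6 (chr6:51269829-51269850, minus strand), is printed with its seed, bases 2 to 8, in capitals. Below it stand the members' 2 matches of 8 letters, written as DNA from the annotated 3′ untranslated regions of GENCODE M21, with the letters that pair with the seed and the following A in capitals.
miR-148a-3p: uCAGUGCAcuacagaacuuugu
Slc2a1 site: gtctcctgTGCACTGAgggccac
Pgd site: gaacgatcTGCACTGAgttcact

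The Slc2a1 match began at base 647 of a region of 1537 bases, and the Pgd match at base 408 of 653. Matches of 7 letters (TGCACTG) with no A after them stood in Gpi1, Pfkfb4, Aldoc, Taldo1 and Txnip, and at 2 places in Pdk1. With both kinds, 8 of the 34 tested members (23.5%) had a match in their longest annotated 3′ untranslated region, beside 1605 of 10460 tested genes with such a region (15.3%). A match is a description of letters and no evidence of targeting.

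Promoter windows from RefSeq (GRCm38.p6, 250 bases before to 50 after the start) were found for 35 members, and Slc2a3 had none. Of these, 11 members had more than 1 annotated start, and the first window in the table was used for each gene. The letters searched on both strands were CACGTG, the E-box that MYC is known to bind, and the 2 forms of the core of the hypoxia response element, ACGTG with an A first and GCGTG with a G first. Every E-box is also counted as the form with an A. The E-box stood in 6 of the 35 windows (17.1%: Pfkm, Ldha, Slc16a1, Pdk2, Hif1a and Bnip3) and in 10.6% of the 8570 windows of tested genes. The form with an A stood in 17 (48.6%, against 26.5%), and the form with a G in 21 (60.0%, against 53.5%). The 35 windows include those of the untested Hk3 and Pdk3, while the 8570 are of tested genes only. Both Hk3 and Pdk3 hold the form with an A, and Pdk3 also holds that with a G. The windows of 5 members called after anti-IgM in at least 1 line are printed with the searched letters or their reverse complements in capitals. Ldha and Slc16a1 hold the E-box, Hk2 holds only the form with an A, Txnip only the form with a G, and this window of Hk1 holds none of them. Another annotated window of Hk1 (chr10:62340372-62340671) holds both core forms, and another of Pfkfb3 (chr2:11502041-11502340) holds the E-box.
Ldha (chr7:46845554-46845853, plus strand): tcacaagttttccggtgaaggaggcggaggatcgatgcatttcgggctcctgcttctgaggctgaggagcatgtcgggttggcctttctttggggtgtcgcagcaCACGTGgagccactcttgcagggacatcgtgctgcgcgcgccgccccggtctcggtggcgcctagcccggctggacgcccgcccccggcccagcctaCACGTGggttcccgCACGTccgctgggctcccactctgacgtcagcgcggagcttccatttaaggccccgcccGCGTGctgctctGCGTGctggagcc
Slc16a1 (chr3:104638414-104638713, plus strand): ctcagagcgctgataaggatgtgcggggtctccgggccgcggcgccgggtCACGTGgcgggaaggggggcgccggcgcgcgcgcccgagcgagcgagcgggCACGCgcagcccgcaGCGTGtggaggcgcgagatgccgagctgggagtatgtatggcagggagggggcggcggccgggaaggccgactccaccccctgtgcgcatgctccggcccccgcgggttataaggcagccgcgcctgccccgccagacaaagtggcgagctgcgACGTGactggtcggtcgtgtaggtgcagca
Hk2 (chr6:82774405-82774704, minus strand): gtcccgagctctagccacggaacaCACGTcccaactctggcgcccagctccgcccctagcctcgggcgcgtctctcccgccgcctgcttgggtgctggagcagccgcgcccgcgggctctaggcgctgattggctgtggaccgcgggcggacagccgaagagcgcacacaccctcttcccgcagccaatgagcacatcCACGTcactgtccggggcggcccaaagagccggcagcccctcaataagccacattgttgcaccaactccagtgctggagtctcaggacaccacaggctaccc
Txnip (chr3:96557707-96558006, plus strand): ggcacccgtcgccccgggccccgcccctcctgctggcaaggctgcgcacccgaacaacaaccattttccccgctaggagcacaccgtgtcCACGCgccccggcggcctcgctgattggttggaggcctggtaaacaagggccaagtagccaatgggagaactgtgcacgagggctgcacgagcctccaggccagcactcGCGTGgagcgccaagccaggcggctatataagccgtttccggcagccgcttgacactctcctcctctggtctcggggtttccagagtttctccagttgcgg
Hk1 (chr10:62379859-62380158, minus strand): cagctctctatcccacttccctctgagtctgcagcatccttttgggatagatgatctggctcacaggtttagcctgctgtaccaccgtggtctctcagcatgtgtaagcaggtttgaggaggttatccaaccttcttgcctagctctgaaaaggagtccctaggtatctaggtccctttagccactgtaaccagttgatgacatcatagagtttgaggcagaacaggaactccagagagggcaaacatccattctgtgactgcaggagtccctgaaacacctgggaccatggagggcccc

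Per kilobase of exon, and as a mean over all 8 libraries, the most abundant member was Gapdh, the glyceraldehyde phosphate dehydrogenase, at 1146 CPM. Ldha followed at 439.8 CPM per kilobase, Pkm at 359 and Pgk1 at 281. Eno1 stood at 64.5 CPM per kilobase, but its row held 14326 counts and that of the near-identical Eno1b held 68764. Summed, these 2 rows were at 687 to 1206 CPM, beside 724 to 1296 CPM for Pkm. The exons of Eno1 and Pkm span 2.546 and 2.599 kilobases, so enolase may rank near Pkm. Hk2 stood at 22.5 and Slc2a1, the main glucose transporter, at 17.2 CPM per kilobase, so the steps that bring glucose in and trap it had the lower transcript levels. Eno2, Hk1, Aldoc, Slc2a3, Slc16a3, Hk3 and Pdk3 were all at 1.45 CPM per kilobase or below.

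Together the 36 rows took 0.863% and 0.856% of the counts of the unstimulated control libraries and 0.976% and 0.898% of those with anti-IgM. In WEHI-miR-148a they took 0.779% and 0.819% unstimulated and 0.789% and 0.762% with anti-IgM. All 4 miR-148a libraries lay below all 4 control libraries, and the anti-IgM libraries lay above the unstimulated ones in WEHI-control but overlapped with them in WEHI-miR-148a. Gapdh alone made up 18.3% to 21.9% of the members' counts. These shares are descriptions without a test. In bulk RNA, fewer cells of a type and less RNA per cell cannot be told apart.

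**Figure D1:**
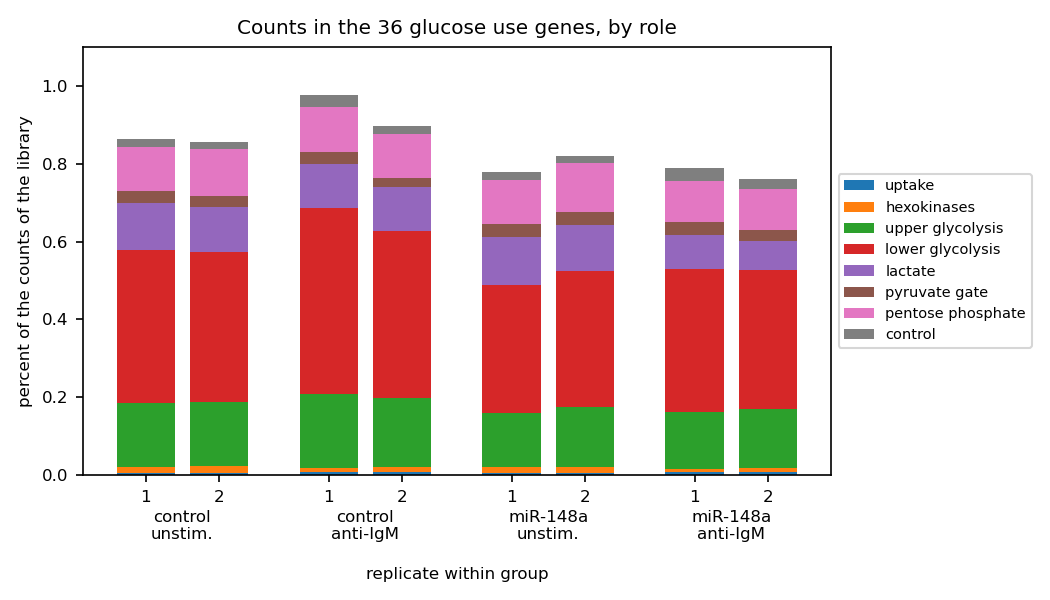
Share of each library's counts (percent, vertical axis) taken by the 36 genes, stacked by role, for the 8 libraries. The stack is highest in control anti-IgM replicate 1 at 0.976% and lowest in miR-148a anti-IgM replicate 2 at 0.762%, and lower glycolysis is the largest layer in every library. The layer named control holds Hif1a, Txnip and Bnip3.

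After anti-IgM for 14 h, members of the pathway differed from the unstimulated cells in both directions. In WEHI-control 6 members rose (Hk1, Pfkm, Pfkfb3, Pfkfb4, Eno2 and Eno3) and 4 fell (Pgam1, Ldhb, Slc16a1 and Pdk1), at an adjusted p under 0.05 in edgeR's quasi-likelihood test with Benjamini-Hochberg adjustment over all genes tested. That is 29.4% of the 34 members, beside 17.0% of all genes tested (9.60% higher and 7.45% lower). The members' median absolute log2 fold change was 0.25, the same as over all genes (0.25), and their median log2 fold change was 0.09 against 0.01.

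In WEHI-miR-148a 9 members rose and 9 fell, 52.9% of the 34, beside 28.7% of all genes tested (14.7% higher and 14.0% lower). The risers were the 6 of WEHI-control with Slc2a1, Eno1 and Txnip added, and the fallers were the 4 of WEHI-control with Hk2, Pfkl, Pfkp, Ldha and Tkt added. The median absolute log2 fold change was 0.36 in the members and 0.31 over all genes, and the median log2 fold change was 0.00 in both. All 10 members called in WEHI-control were called in the same direction in WEHI-miR-148a, as were 85.3% of all 1925 genes called in WEHI-control. The estimates had 1 sign in both lines for 28 of the 34 members (82.4%), near the 82.8% of all genes tested. The 2 comparisons share no library. With the replicate number as a block, 9 members were called higher and 6 lower in WEHI-control, beside 34.8% of all genes (17.6% higher and 17.2% lower), and 9 higher and 10 lower in WEHI-miR-148a, beside 46.1% (22.8% higher and 23.3% lower).

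Of the 18 members called in WEHI-miR-148a, 17 (94.4%) had a larger absolute fold change there than in WEHI-control, beside 85.1% of all 3238 genes called there, a count that the choice by that line's test favours. No member and no gene passed the test of that difference (the interaction term in edgeR, 0% of 11291 genes). At an unadjusted p under 0.05 the interaction took 484 genes (4.29%), 2 of them members (Pgam1 and Ldha). DESeq2 called 1 gene in it, and the fit with the replicate number as a block called 11 (0.0974%, with 0.0620% higher and 0.0354% lower), none of them a member.

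**Figure D2:**
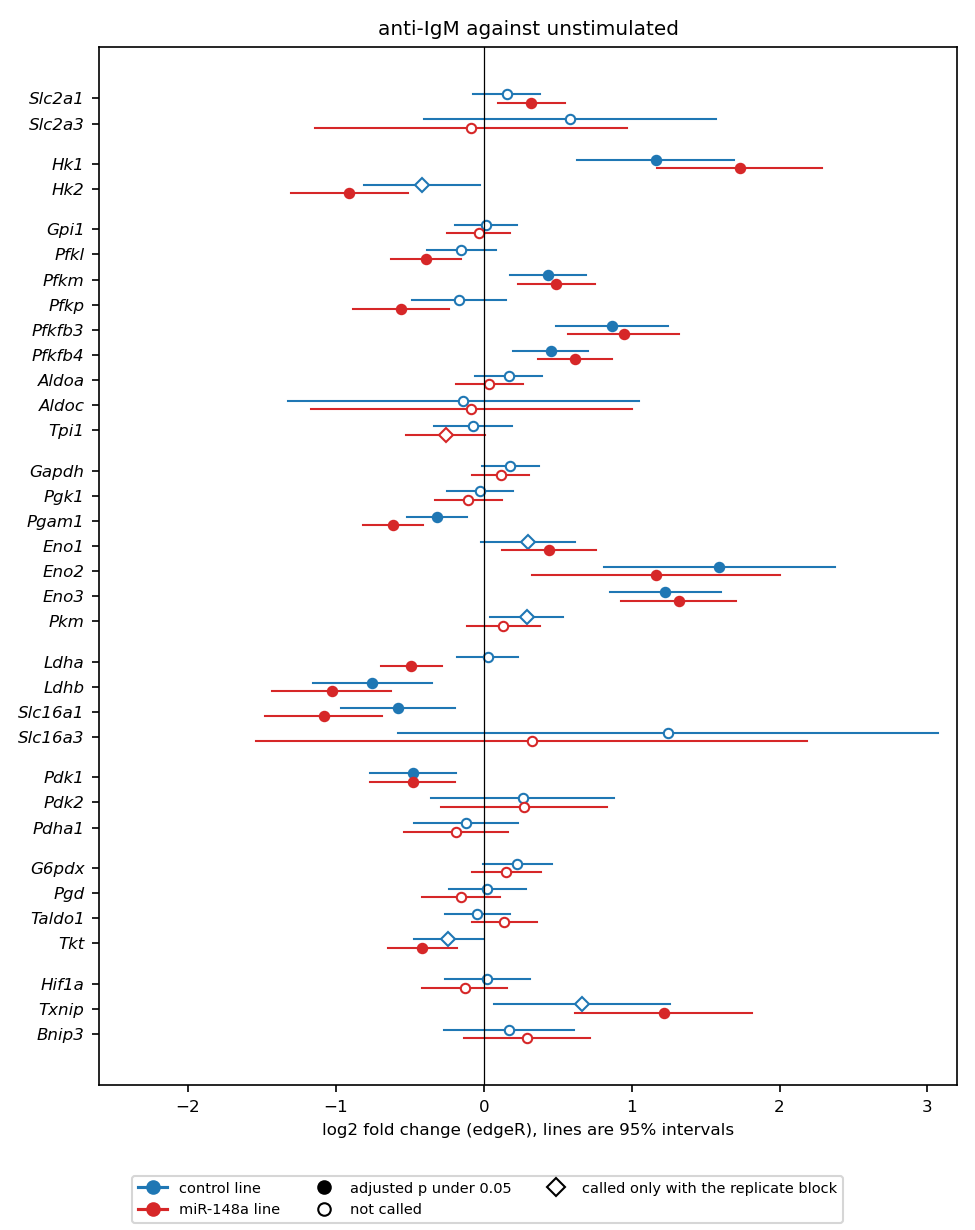
Log2 fold change of each tested member after anti-IgM (horizontal axis), in WEHI-control and in WEHI-miR-148a, ordered by role. Lines are 95% confidence intervals derived from edgeR's F statistic. Among the called members Hk1, Eno2 and Eno3 lie farthest to the right in WEHI-control and Hk1, Eno3 and Txnip in WEHI-miR-148a, and Ldhb and Slc16a1 farthest to the left.

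Glucose uptake rests here on Slc2a1 (GLUT1, chr4:119108745-119137330), which made up 96.1% to 98.9% of the 2 transporters per kilobase. Its levels were 55.7 and 49.7 CPM in unstimulated control cells and 58.1 and 59.5 CPM with anti-IgM. In WEHI-miR-148a they were 49.3 and 51.2 CPM unstimulated and 62.0 and 63.6 CPM with anti-IgM. The groups do not overlap in either line, and the fold change was 1.25 in WEHI-miR-148a (log2 0.32 ± 0.10 SE, adjusted p = 0.0411) and 1.11 in WEHI-control (log2 0.16 ± 0.10, adjusted p = 0.323). The call in WEHI-miR-148a was lost when any 1 of the 8 libraries was left out (adjusted p up to 0.219). Slc2a3 (GLUT3) was at 0.822 to 2.84 CPM and was not called in any comparison.

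At the hexokinase step, which phosphorylates glucose inside the cell, Hk1 rose in both lines and Hk2 fell in WEHI-miR-148a. Hk2, the inducible hexokinase of growing cells (chr6:82725025-82774454), was at 140 and 172 CPM in unstimulated control cells and 96.2 and 136 CPM with anti-IgM. In WEHI-miR-148a it was at 143.4 and 160.3 CPM unstimulated and 75.5 and 85.9 CPM with anti-IgM. In each line both treated libraries lie below both untreated ones. Hk2 fell 1.88-fold in WEHI-miR-148a (log2 -0.91 ± 0.18, adjusted p = 0.00530). WEHI-control had log2 -0.42 ± 0.17 (adjusted p = 0.133, and 0.00188 with the replicate block).

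Hk1, the hexokinase of most resting tissues (chr10:62268855-62379920), was far scarcer. It went from 4.49 and 4.24 CPM to 11.9 and 8.08 CPM in WEHI-control, and from 3.22 and 2.61 CPM to 9.70 and 9.68 CPM in WEHI-miR-148a. All 4 treated libraries exceed all 4 untreated ones. It rose 2.24-fold in WEHI-control (log2 1.16 ± 0.24, adjusted p = 0.0125) and 3.32-fold in WEHI-miR-148a (log2 1.73 ± 0.25, adjusted p = 0.00151). Its share of the hexokinase transcripts per kilobase was 1.85% to 3.58% in the unstimulated libraries and 6.41% to 12.9% with anti-IgM, so Hk2 remained the main isozyme in all 8. The WEHI-control call of Hk1 was lost without either unstimulated control library or without control anti-IgM replicate 1 (adjusted p 0.0551 to 0.0762).

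Among the 3 phosphofructokinases, which catalyse the main regulated step, the muscle form Pfkm rose while the liver and platelet forms fell in WEHI-miR-148a. Pfkm (chr15:98092589-98132447) was at 37.2 and 33.5 CPM in unstimulated control cells and 51.7 and 44.4 CPM with anti-IgM, and at 31.6 and 31.5 CPM and then 44.9 and 43.8 CPM in WEHI-miR-148a. It rose 1.35-fold (log2 0.43 ± 0.11, adjusted p = 0.0318) and 1.41-fold (log2 0.49 ± 0.11, adjusted p = 0.0121). Pfkp (chr13:6579874-6649060) went from 111 and 106 CPM to 85.1 and 62.7 CPM in WEHI-miR-148a, a fall of 1.48-fold (log2 -0.56 ± 0.14, adjusted p = 0.0185), and Pfkl (chr10:77986947-78009807) from 153 and 169 CPM to 119 and 127 CPM, a fall of 1.31-fold (log2 -0.39 ± 0.10, adjusted p = 0.0215). In WEHI-control the log2 changes were -0.16 ± 0.14 for Pfkp and -0.15 ± 0.10 for Pfkl, and neither was called. In WEHI-miR-148a the Pfkp call was lost without either unstimulated library or without anti-IgM replicate 2 of that line, with log2 -0.35 (adjusted p = 0.108) in the last case. The Pfkl call there was lost without any 1 of that line's 4 libraries (adjusted p up to 0.141). The Pfkm call was lost without the same 3 libraries as that of Pfkp in WEHI-miR-148a (adjusted p up to 0.0784), and in WEHI-control without any unstimulated library or without control anti-IgM replicate 1 (up to 0.179). Per kilobase, Pfkm was 13.1% to 14.2% of the 3 isozymes unstimulated and 18.8% to 23.1% with anti-IgM.

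The bifunctional enzymes Pfkfb3 and Pfkfb4 make and remove fructose 2,6-bisphosphate, the strongest known activator of phosphofructokinase. Pfkfb3 (chr2:11471430-11554071) went from 54.0 and 42.0 CPM to 85.0 and 90.6 CPM in WEHI-control, and from 52.6 and 61.0 CPM to 93.7 and 124 CPM in WEHI-miR-148a. It rose 1.82-fold (log2 0.87 ± 0.17, adjusted p = 0.0101) and 1.93-fold (log2 0.95 ± 0.17, adjusted p = 0.00350). Pfkfb4 (chr9:108988272-109032236) rose 1.37-fold in WEHI-control (from 15.3 and 16.0 CPM to 21.4 and 21.3 CPM, log2 0.45 ± 0.11, adjusted p = 0.0270) and 1.54-fold in WEHI-miR-148a (from 16.9 and 17.4 CPM to 27.3 and 25.5 CPM, log2 0.62 ± 0.11, adjusted p = 0.00385). Treated and untreated libraries do not overlap for either gene in either line. In WEHI-control the Pfkfb3 call was lost without control unstimulated replicate 2 (adjusted p = 0.0766), and the Pfkfb4 call without any 1 of 6 libraries, all but the 2 anti-IgM libraries of WEHI-miR-148a (up to 0.138). The remaining enzymes of upper glycolysis, Gpi1, Aldoa, Aldoc and Tpi1, were not called in either line, with log2 fold changes from -0.26 to 0.17. Tpi1, the triose phosphate isomerase, was called lower in WEHI-miR-148a with the replicate block (adjusted p = 0.0300).

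In lower glycolysis, from Gapdh to Pkm, the enzymes Gapdh, Pgk1 and Pkm were not called after anti-IgM in either line. Gapdh (chr6:125161852-125166467) was at 1692 and 1761 CPM in unstimulated control cells, 1994 and 1914 CPM with anti-IgM, and at 1462 and 1585 CPM and then 1691 and 1608 CPM in WEHI-miR-148a (log2 0.18 ± 0.09 and 0.11 ± 0.09). Pkm, the pyruvate kinase of the final step (chr9:59656576-59679372), was at 1009 and 929.5 CPM unstimulated and 1296 and 1075 CPM with anti-IgM in WEHI-control (log2 0.29 ± 0.11, adjusted p = 0.102, and 0.0135 with the replicate block). Pgk1, which makes the first ATP of the pathway, had log2 -0.03 ± 0.10 and -0.10 ± 0.10.

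Pgam1, the phosphoglycerate mutase (chr19:41911871-41918665), fell in both lines. At 271 CPM per kilobase it was about as abundant as Pgk1. It went from 581 and 547 CPM to 448 and 457 CPM in WEHI-control (1.25-fold, log2 -0.32 ± 0.09, adjusted p = 0.0414) and from 543 and 552 CPM to 377 and 340.5 CPM in WEHI-miR-148a (1.53-fold, log2 -0.61 ± 0.09, adjusted p = 0.00171). The difference between those responses was log2 -0.29 ± 0.13 and did not pass the adjusted test. The WEHI-control call was lost without any 1 of 6 libraries, all but the 2 anti-IgM libraries of WEHI-miR-148a (adjusted p up to 0.202).

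The minor enolases rose. Eno3, the muscle enolase (chr11:70653125-70662513), went from 37.7 and 28.6 CPM to 79.1 and 76.9 CPM in WEHI-control and from 21.1 and 23.8 CPM to 47.8 and 63.5 CPM in WEHI-miR-148a. It rose 2.34-fold (log2 1.23 ± 0.17, adjusted p = 0.00261) and 2.495-fold (log2 1.32 ± 0.17, adjusted p = 0.00110), with every treated library above every untreated one. Eno2, the neuronal enolase (chr6:124760053-124769673), was scarce, at 2.88 and 1.89 CPM and then 8.37 and 6.52 CPM in WEHI-control, and at 2.53 and 1.38 CPM and then 4.93 and 3.97 CPM in WEHI-miR-148a. It rose 3.02-fold (log2 1.59 ± 0.34, adjusted p = 0.0163) and 2.24-fold (log2 1.16 ± 0.37, adjusted p = 0.0432). The Eno2 call in WEHI-miR-148a was lost without any 1 of 5 libraries (both control anti-IgM libraries, both miR-148a anti-IgM libraries and miR-148a unstimulated replicate 2, adjusted p up to 0.212), and the WEHI-control call without control anti-IgM replicate 1 or control unstimulated replicate 2 (adjusted p = 0.0881 and 0.0936).

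Eno1, the enolase of most cells (chr4:150236708-150248879), has to be read with a near-identical gene. Its row held 14326 counts over the 8 libraries and the row of Eno1b, with at least 95% identity over 200 bases or more, held 68764. Alone, Eno1 went from 142 and 108 CPM to 159.6 and 179 CPM in WEHI-miR-148a and was called higher (1.36-fold, log2 0.44 ± 0.14, adjusted p = 0.0445). With both rows summed, an alternative chosen after seeing the data, the change there was log2 -0.08 ± 0.13 (adjusted p = 0.669), from 778 and 800.1 CPM to 804 and 687 CPM. In WEHI-control Eno1 alone had log2 0.30 ± 0.14 (adjusted p = 0.175) and was called higher with the replicate block (adjusted p = 0.0377), while the sum had log2 0.01 ± 0.13 (adjusted p = 0.969). The call of Eno1 alone was also lost when any 1 library but miR-148a unstimulated replicate 1 was left out, with log2 0.25 (adjusted p = 0.274) without miR-148a unstimulated replicate 2.

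**Figure D3:**
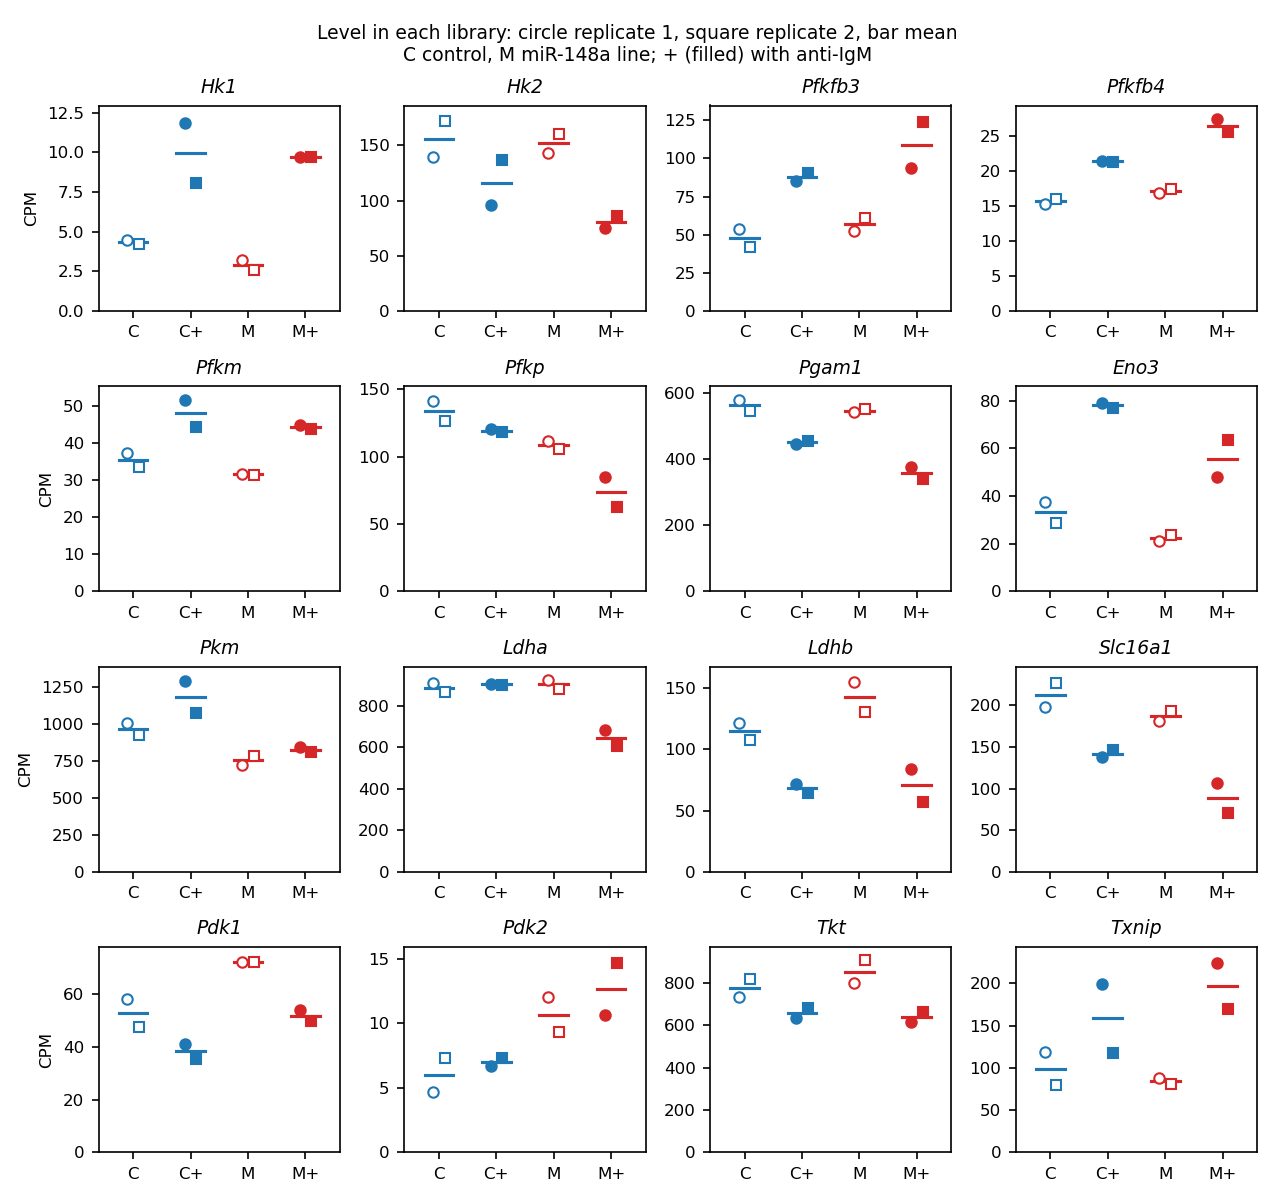
CPM (vertical axes, linear from 0) of 16 members in the 8 libraries, with a circle for replicate 1, a square for replicate 2 and a bar for the group's mean. C is WEHI-control, M is WEHI-miR-148a, and filled points are anti-IgM. Every treated library of Hk1 (8.08 to 11.9 CPM) lies above every untreated one (2.61 to 4.49 CPM), and the opposite holds for Ldhb, with 56.9 to 83.8 CPM against 107 to 154 CPM.

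Of the 4 genes at the lactate end, Ldhb and Slc16a1 fell in both lines, Ldha fell in WEHI-miR-148a, and Slc16a3 was not called. Ldhb, the lactate dehydrogenase subunit of oxidative tissues (chr6:142490249-142507957), fell 1.69-fold in WEHI-control, from 121 and 107 CPM to 71.6 and 64.5 CPM (log2 -0.75 ± 0.18, adjusted p = 0.0225). It fell 2.04-fold in WEHI-miR-148a, from 154 and 130 CPM to 83.8 and 56.9 CPM (log2 -1.03 ± 0.18, adjusted p = 0.00338). Slc16a1 (MCT1, chr3:104638664-104658462), which carries lactate and pyruvate across the plasma membrane, fell 1.495-fold in WEHI-control, from 198 and 227 CPM to 138 and 147 CPM (log2 -0.58 ± 0.17, adjusted p = 0.0488). In WEHI-miR-148a it fell 2.12-fold, from 181 and 193 CPM to 107 and 70.5 CPM (log2 -1.08 ± 0.18, adjusted p = 0.00250). Slc16a3 (MCT4), the carrier of highly glycolytic cells, was at 0.164 to 1.39 CPM, near the level of 3 counts, with positive estimates of log2 1.25 and 0.32. The WEHI-control call of Ldhb was lost without any 1 of the 4 control libraries (adjusted p up to 0.108), and that of Slc16a1 without any 1 of 6 libraries, all but the anti-IgM libraries of WEHI-miR-148a (up to 0.195).

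Ldha, the lactate dehydrogenase subunit of glycolytic cells (chr7:46842274-46855627), was not called in WEHI-control and fell in WEHI-miR-148a. Its levels were 908 and 865 CPM and then 903 and 902 CPM in WEHI-control (log2 0.03 ± 0.09, 95% confidence interval -0.18 to 0.23, adjusted p = 0.883). In WEHI-miR-148a they were 926 and 879 CPM and then 681 and 604 CPM (1.40-fold lower, log2 -0.49 ± 0.09, adjusted p = 0.00462). The difference between the 2 responses was log2 -0.52 ± 0.13 and was not called (adjusted p = 0.0565 with the replicate block). The Ldhb share of the pair per kilobase was 15.3% to 19.5% in the unstimulated libraries and 9.41% to 15.2% with anti-IgM.

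**Figure D4:**
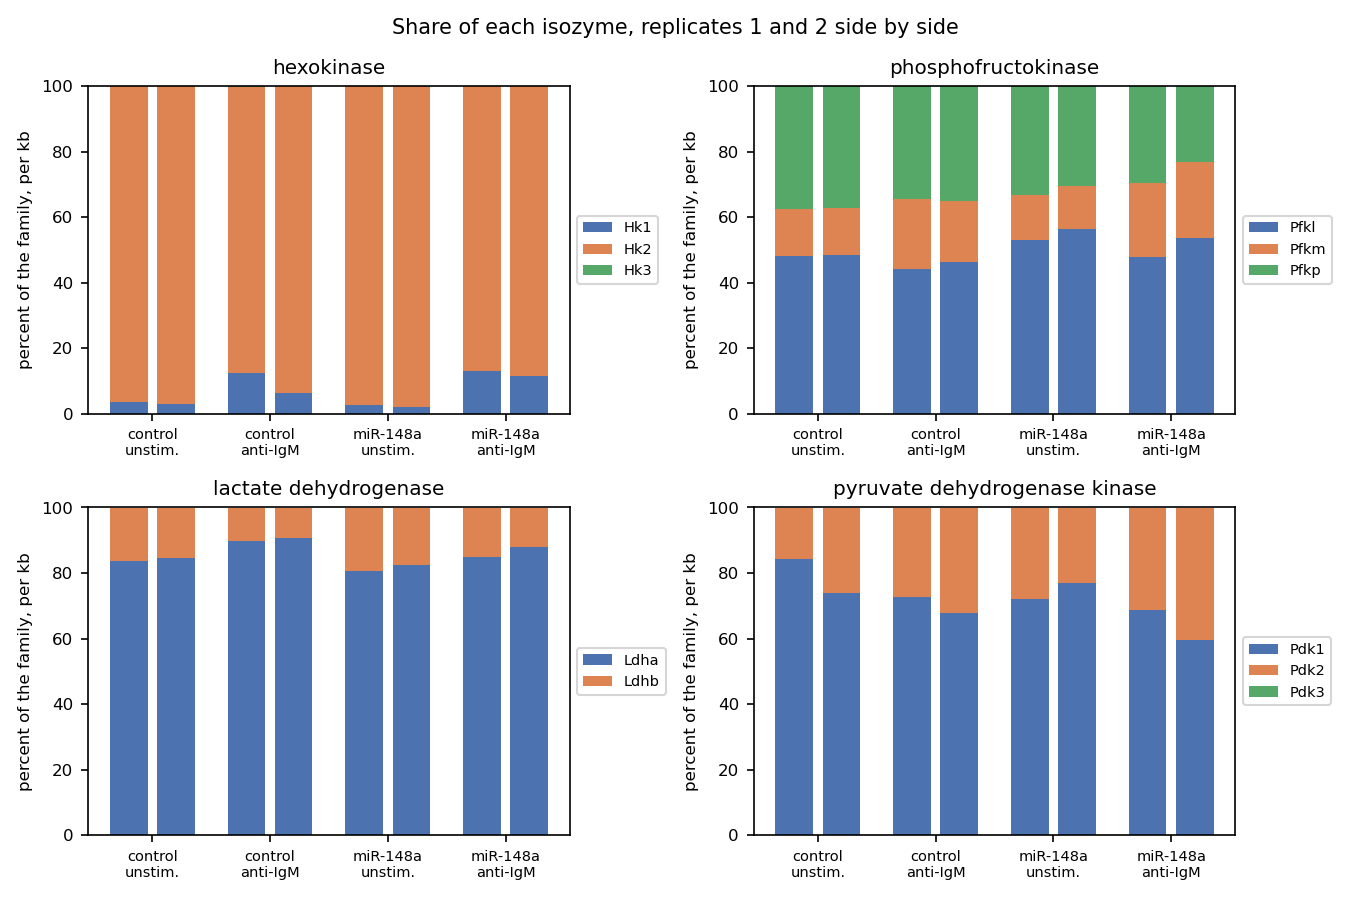
Share of each isozyme in its family (percent of the family's counts per kilobase of exon, vertical axis) in the 8 libraries. Hk1 goes from at most 3.58% to at least 6.41% of the hexokinases with anti-IgM, Pfkm from at most 14.2% to at least 18.8% of the phosphofructokinases, and Ldhb has its 4 lowest shares in the anti-IgM libraries.

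At the pyruvate gate, Pdk1, a kinase that switches off pyruvate dehydrogenase (chr2:71873215-71903858), fell in both lines. It went from 58.0 and 47.5 CPM to 41.0 and 35.4 CPM in WEHI-control (1.39-fold, log2 -0.48 ± 0.13, adjusted p = 0.0359) and from 72.1 and 71.9 CPM to 53.9 and 49.5 CPM in WEHI-miR-148a (1.40-fold, log2 -0.48 ± 0.13, adjusted p = 0.0208). The WEHI-control call of Pdk1 was lost without control unstimulated replicate 1, either control anti-IgM library or either unstimulated miR-148a library (adjusted p up to 0.212), and the WEHI-miR-148a call without either unstimulated miR-148a library or miR-148a anti-IgM replicate 2 (up to 0.124). Pdk2 was at 4.65 to 14.7 CPM with overlapping groups, and Pdha1, the catalytic subunit of the complex, at 199 to 270.3 CPM, and neither was called. In the pentose phosphate pathway, Tkt, the transketolase (chr14:30549131-30574724), fell 1.33-fold in WEHI-miR-148a, from 798 and 909.5 CPM to 617 and 664 CPM (log2 -0.41 ± 0.10, adjusted p = 0.0166), a call lost without miR-148a anti-IgM replicate 1 or unstimulated replicate 2 (adjusted p = 0.0607 and 0.122). Its WEHI-control change was log2 -0.24 ± 0.10 (adjusted p = 0.146, and 0.0104 with the replicate block). G6pdx, the entry enzyme, Pgd and Taldo1 were not called after anti-IgM in either line.

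Of the 3 remaining genes, Txnip was called. Txnip (chr3:96557957-96561857) encodes a brake on glucose uptake that is itself induced by glucose metabolites. In WEHI-miR-148a it went from 88.4 and 80.7 CPM to 224 and 169 CPM, a rise of 2.32-fold (log2 1.22 ± 0.26, adjusted p = 0.00896, and 0.0533 without miR-148a unstimulated replicate 2). In WEHI-control it was at 119 and 79.7 CPM unstimulated and 199.8 and 118 CPM with anti-IgM, so that the groups overlap across replicates (log2 0.66 ± 0.26, adjusted p = 0.116). Within each replicate number the treated library was higher there too, by 0.75 and 0.56 on the log2 scale, and the replicate block called it (adjusted p = 0.000548). Hif1a, the oxygen-regulated subunit of HIF, was at 83.7 to 107 CPM in all 8 libraries (log2 0.02 ± 0.13 and -0.13 ± 0.13), and Bnip3, a mitophagy gene known as a HIF target, at 5.86 to 10.0 CPM, and neither was called.

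The single-library dependence of these calls was uneven. Calls over all genes tested became fewer too without each of the libraries named in this paragraph, so the losses are not particular to the members. With control unstimulated replicate 2 left out, 1 member rose and 1 fell in WEHI-control. Without control anti-IgM replicate 1 the counts were 2 and 0, without control unstimulated replicate 1 they were 3 and 0, without either unstimulated miR-148a library they were 4 and 1, and without control anti-IgM replicate 2 they were 6 and 1. Of the 10 WEHI-control calls, that of Eno3 was kept in all 13 other settings tried. In WEHI-miR-148a the counts were lowest without miR-148a unstimulated replicate 2, with 4 higher and 5 lower. Without miR-148a anti-IgM replicate 2 they were 5 and 6, without miR-148a anti-IgM replicate 1 they were 6 and 7, without miR-148a unstimulated replicate 1 they were 7 and 6, and without any 1 control library they were 6 to 7 and 9. Of the 18 calls there, 9 were kept in all 13 settings (Hk1, Hk2, Pfkfb3, Pfkfb4, Pgam1, Eno3, Ldha, Ldhb and Slc16a1). In the same libraries the summed monocyte, macrophage and neutrophil markers (at no more than 11.3 CPM) and the summed T cell markers (at no more than 45.0 CPM) were also higher with anti-IgM, and their part in the changes was not tested.

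Between the lines, the enzymes of lower glycolysis had lower estimates in WEHI-miR-148a in both conditions, and most of those that passed the test did so only with the replicate block. Unstimulated, no member was called in edgeR, beside 0.487% of all genes tested, and 9 members (26.5%) had an unadjusted p under 0.05, beside 11.4% of all genes. With DESeq2 the same comparison called 150 genes. With the replicate block 3 members were called higher (Ldhb, Pdk1 and Pdk2) and 6 lower (Gpi1, Aldoa, Eno1, Eno3, Pkm and Pgd), beside 7.29% of all genes (3.91% higher and 3.37% lower). The members' median log2 difference was -0.08, against 0.01 over all genes.

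With anti-IgM, 3 members were called lower in WEHI-miR-148a (Pfkp, Pkm and Ldha) and none higher, 8.82% of the 34, beside 2.52% of all genes tested (1.16% lower). Ldha was at 681 and 604 CPM against 903 and 902 CPM in WEHI-control (1.41-fold lower, log2 -0.49 ± 0.09, adjusted p = 0.0341). Pfkp was at 85.1 and 62.7 CPM against 120.5 and 118 CPM (1.62-fold lower, log2 -0.70 ± 0.14, adjusted p = 0.0443). Pkm was at 844 and 809.8 CPM against 1296 and 1075 CPM (1.43-fold lower, log2 -0.52 ± 0.11, adjusted p = 0.0466). In each of the 3 genes both miR-148a libraries lie below both control libraries, which the choice by this test favours. The same holds for members that were not called, such as Aldoa and Gapdh. Without miR-148a anti-IgM replicate 1 the call of Pkm was lost (adjusted p = 0.0799) and those of Ldha and Pfkp were kept. Without any other single library all 3 were lost (adjusted p 0.0519 to 0.214).

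With the replicate block, 13 members were called lower in WEHI-miR-148a with anti-IgM, beside 8.24% of all genes lower, and 3 higher (Pdk1, Pdk2 and Txnip), beside 7.90% higher (16.1% in either direction). The 13 were Hk2, Gpi1, Pfkp, Aldoa, Gapdh, Pgk1, Pgam1, Eno2, Eno3, Pkm, Ldha, Slc16a1 and Pgd. Aldoa, the main aldolase, was at 591 and 565 CPM against 806 and 728 CPM (log2 -0.41 ± 0.10, adjusted p = 0.0748, and 0.00392 with the block). Slc16a1 was at 107 and 70.5 CPM against 138 and 147 CPM (log2 -0.69 ± 0.18, adjusted p = 0.0849, and 0.00442 with the block). Gapdh was at 1691 and 1608 CPM against 1994 and 1914 CPM (log2 -0.24 ± 0.09, adjusted p = 0.176, and 0.0254 with the block). Without the block 16 members (47.1%) had an unadjusted p under 0.05, beside 18.2% of all genes. The median log2 difference was -0.22 in the members and -0.01 over all genes, and all 7 members of lower glycolysis had a negative value in both conditions. Unstimulated, those of Pgam1 (-0.04 ± 0.09) and Eno2 (-0.31 ± 0.37) were within their standard error of 0. The share of all genes with a negative value in both conditions was not counted.

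Eno1 and Eno1b summed were at 1134 and 1023 CPM in the unstimulated control libraries and 778 and 800.1 CPM in those of WEHI-miR-148a (log2 -0.45 ± 0.13, adjusted p = 0.188, and 0.00379 with the block). With anti-IgM they were at 1206 and 968 CPM against 804 and 687 CPM (log2 -0.54 ± 0.13, adjusted p = 0.0643, and 0.000613 with the block). No miR-148a library reached the lowest control library in this sum.

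The members called higher in WEHI-miR-148a in both conditions, with the replicate block alone, were the kinases Pdk1 and Pdk2 of the pyruvate gate. Pdk1 was at 72.1 and 71.9 CPM against 58.0 and 47.5 CPM unstimulated, and at 53.9 and 49.5 CPM against 41.0 and 35.4 CPM with anti-IgM. The log2 differences were 0.44 ± 0.12 and 0.44 ± 0.13 (adjusted p = 0.185 and 0.128, and 0.00669 and 0.00935 with the replicate block). Pdk2 was at 12.0 and 9.30 CPM against 4.65 and 7.31 CPM unstimulated, and at 10.7 and 14.7 CPM against 6.69 and 7.30 CPM with anti-IgM (log2 0.86 ± 0.25 and 0.87 ± 0.27, adjusted p = 0.222 and 0.137, and 0.0222 and 0.0211 with the block). Txnip was called higher with anti-IgM with the block alone (log2 0.32 ± 0.26, adjusted p = 0.582, and 0.0498 with the block), with overlapping groups.

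The 8 members with a seed match of miR-148a did not move as 1 group between the unstimulated lines. Slc2a1 (log2 -0.07 ± 0.10), Taldo1 (-0.09 ± 0.10) and Txnip (-0.24 ± 0.26) were not called with or without the replicate block. Pgd (-0.30 ± 0.11) and Gpi1 (-0.24 ± 0.09) were called lower with the block (adjusted p = 0.0401 and 0.0438). Pdk1, with 2 matches, was called higher with it, and Pfkfb4 (0.14 ± 0.11) and Aldoc (0.67 ± 0.47) had positive values and were not called. With anti-IgM, Pgd (-0.47 ± 0.12) and Gpi1 (-0.29 ± 0.09) were again called lower with the block alone (adjusted p = 0.00226 and 0.0124). Pdk1 and Txnip were called higher with it. Slc2a1, Taldo1, Pfkfb4 and Aldoc then had positive values (0.09 to 0.73) and were not called.

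**Figure D5:**
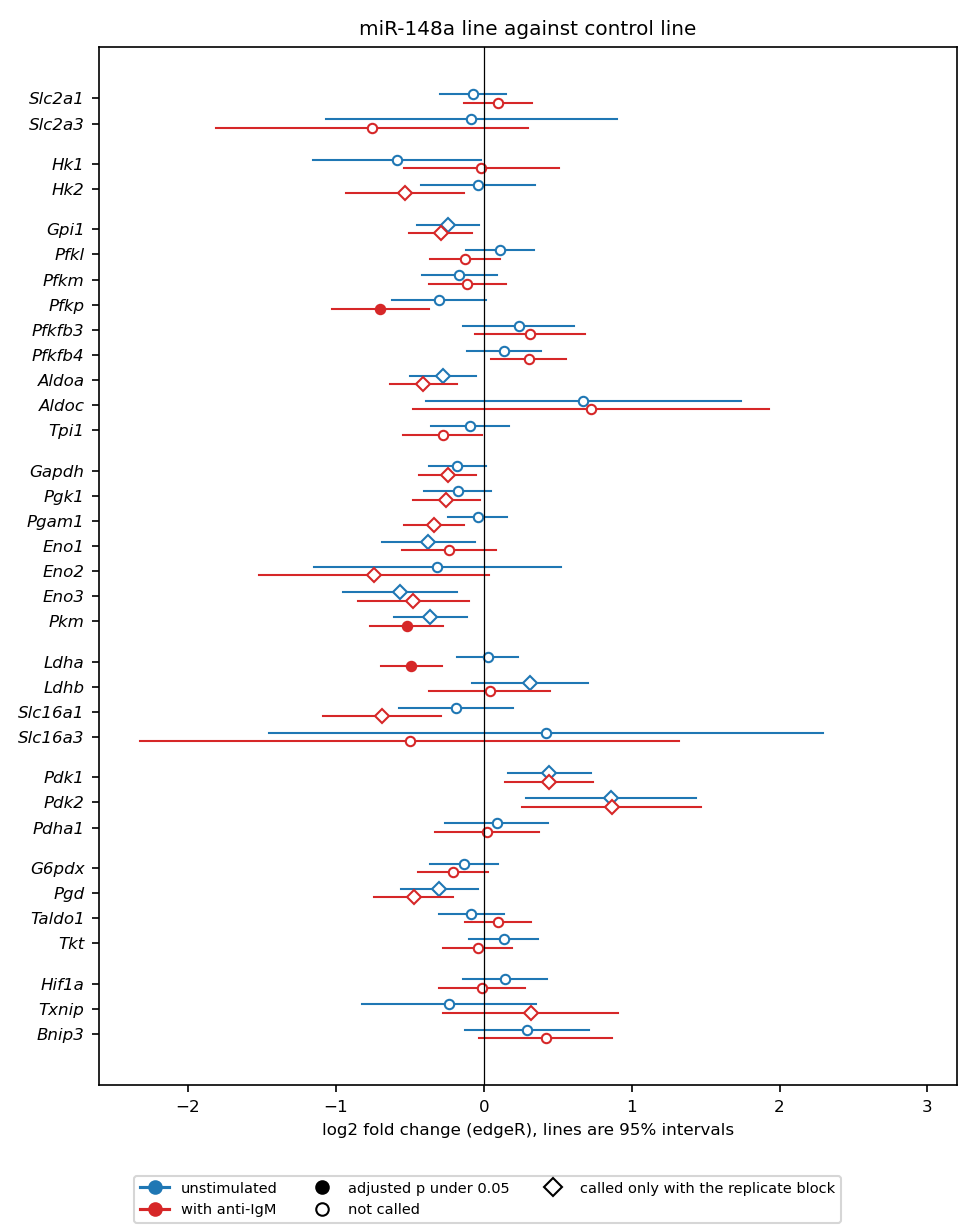
Log2 difference of each tested member between WEHI-miR-148a and WEHI-control (horizontal axis), unstimulated and with anti-IgM. Lines are 95% confidence intervals derived from edgeR's F statistic. All 7 members of lower glycolysis lie left of 0 in both conditions, while Pdk1 and Pdk2 lie right of it. The intervals of Gapdh, Pgk1, Pgam1 and Eno2 cross 0 unstimulated, and those of Eno1 and Eno2 with anti-IgM.

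Genes around the pathway were taken from lists that share no member with the 36. Per list and comparison, up to 4 called genes of the largest change could be named. A gene named for 1 line may thus have changed in the other too. Beside the counts that follow, 9.60% of all genes tested rose and 7.45% fell in WEHI-control, and 14.7% rose and 14.0% fell in WEHI-miR-148a. Of 24 tested genes of other glucose handling, 2 rose and 5 fell in WEHI-control (8.33% and 20.8%) and 1 rose and 8 fell in WEHI-miR-148a (4.17% and 33.3%). Pgls, which follows G6pdx in the pentose phosphate pathway, fell in both (log2 -0.69 ± 0.14, adjusted p = 0.0135, and -0.61 ± 0.14, adjusted p = 0.0125). Rpia, the ribose phosphate isomerase, went from 204 and 198 CPM to 136.9 and 130.4 CPM in WEHI-control (log2 -0.59 ± 0.10, adjusted p = 0.00535). Its levels in WEHI-miR-148a were 219.1 and 240.1 CPM and then 190.3 and 181.5 CPM. Adpgk, an ADP-dependent glucokinase, fell in WEHI-miR-148a (log2 -0.66 ± 0.14, adjusted p = 0.00749). Its levels in WEHI-control were 45.15 and 40.14 CPM and then 26.6 and 33.46 CPM. The list's largest called change was a rise in each line. In WEHI-control it was that of Pgm2 (log2 0.89 ± 0.26, adjusted p = 0.0462). In WEHI-miR-148a it was that of Slc2a8, at 0.384 to 2.18 CPM over all libraries (log2 1.74 ± 0.49, adjusted p = 0.0270). The list's median log2 fold change was -0.07 in WEHI-control and 0.11 in WEHI-miR-148a. Between the lines with anti-IgM, 2 genes of the list were called higher in WEHI-miR-148a and 0 lower. That is 8.33% higher, beside 1.36% of all genes tested higher and 1.16% lower. They were Gpd1l (log2 0.55 ± 0.11, adjusted p = 0.0407) and Rpia (log2 0.48 ± 0.10, adjusted p = 0.0419).

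Of 36 tested genes of mitochondrial pyruvate use and the tricarboxylic acid cycle, none rose, 4 fell in WEHI-control (11.1%) and 6 fell in WEHI-miR-148a (16.7%), shares of falls near those of all genes, with medians of -0.18 and -0.17. Pck2 fell in WEHI-control, from 567 and 578 CPM to 349.7 and 383 CPM (log2 -0.64 ± 0.09, adjusted p = 0.00352). Its levels in WEHI-miR-148a were 534.5 and 557.8 CPM and then 435.4 and 482.5 CPM. Idh3a, a subunit of isocitrate dehydrogenase, fell in WEHI-miR-148a (log2 -0.66 ± 0.17, adjusted p = 0.0200). Its levels in WEHI-control were 221.5 and 198.5 CPM and then 164.5 and 149.2 CPM. With anti-IgM, 1 gene of the list was called between the lines (2.78%). It was Got1, lower in WEHI-miR-148a (log2 -0.64 ± 0.11, adjusted p = 0.0264).

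Of 26 tested genes of the HIF pathway and hypoxia, 5 rose and 3 fell in WEHI-control (19.2% and 11.5%) and 5 rose and 5 fell in WEHI-miR-148a (19.2% and 19.2%). Ndrg1, at 0.631 to 1.69 CPM unstimulated, had the largest called change in both lines (log2 2.48 ± 0.54, adjusted p = 0.0171, and 2.16 ± 0.51, adjusted p = 0.0127). In WEHI-control Pdgfb rose (log2 1.795 ± 0.19, adjusted p = 0.00106) and Adm fell (log2 -1.075 ± 0.27, adjusted p = 0.0263). Ddit4, an inhibitor of mTORC1, went from 62.1 and 54.4 CPM to 127 and 114 CPM in WEHI-control (log2 1.04 ± 0.18, adjusted p = 0.00699) and rose by log2 1.65 ± 0.18 in WEHI-miR-148a (adjusted p = 0.000688). Tfrc, the transferrin receptor, fell in WEHI-miR-148a, from 880 and 842 CPM to 359 and 304 CPM (log2 -1.38 ± 0.12, adjusted p = 0.000372). In WEHI-control it was at 1085 and 1007 CPM unstimulated and at the lower 816 and 672 CPM with anti-IgM. With anti-IgM, Tfrc was lower in WEHI-miR-148a than in WEHI-control (log2 -1.17 ± 0.12, adjusted p = 0.0109). It was the 1 gene of this list called between the lines (3.85%).

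Of 30 tested genes of glucose sensing and nutrient signalling, 4 rose and 3 fell in WEHI-control (13.3% and 10.0%) and 7 rose and 3 fell in WEHI-miR-148a (23.3% and 10.0%), with called shares in either direction of 23.3% and 33.3% beside 17.0% and 28.7% of all genes. Myc was at 257 and 296 CPM in unstimulated control cells and 55.4 and 137.2 CPM with anti-IgM, and at 335 and 315 CPM and then 78.1 and 75.6 CPM in WEHI-miR-148a. Its log2 fold changes were -1.5 ± 0.31 (adjusted p = 0.0141) and -2.08 ± 0.32 (adjusted p = 0.00208). Pik3ip1, an inhibitor of PI3 kinase, rose in both lines (log2 2.10 ± 0.30, adjusted p = 0.00311, and 2.34 ± 0.28, adjusted p = 0.000773), as did Sesn3, a sestrin that restrains mTORC1 (log2 1.12 ± 0.12, adjusted p = 0.00106, and 0.99 ± 0.11, adjusted p = 0.000741). Foxo1, a transcription factor that PI3 kinase signalling keeps out of the nucleus, rose in WEHI-control (log2 0.89 ± 0.13, adjusted p = 0.00373). Its levels in WEHI-miR-148a were 15.55 and 16.9 CPM and then 24.16 and 26.47 CPM. With anti-IgM, 1 gene of the list was called between the lines (3.33%). It was Prkaa1, lower in WEHI-miR-148a (log2 -0.46 ± 0.10, adjusted p = 0.0499).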

How the data were processed

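The authors deposited 1 table of estimated counts (expected counts, which need not be whole) per gene symbol, without normalisation. The submitters' processing notes name mm10 and GRCm38 as builds and, as tools, TopHat2 2.0.13 with Bowtie2, cutadapt, CASAVA 1.8, edgeR and Partek 6.15.0730. Per the labels' protocols the library kit was directional. Which annotation and strand setting the counting used is not given in the sources used here, so overlapping and near-identical genes (Eno1 with Eno1b, Gapdh with its pseudogenes) may share reads.

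Of 24081 rows, 27 whose names had become dates were left out (0.213% to 0.235% of counts). In each library 9.11% to 12.4% of values were not whole, and values were rounded. edgeR 4.0.16 in R 4.3.3 fitted its quasi-likelihood model to all 8 libraries with 4 group means (filterByExpr, TMM, 4 residual degrees of freedom), with Benjamini-Hochberg adjustment over 11291 genes and a threshold of 0.05. The procedure was run on simulated libraries drawn independently of each other. They lacked the pairing of same-numbered libraries described below, so the run is no check on paired data. Errors after ± are standard errors of log2 fold changes, derived as the absolute log2 fold change over the square root of edgeR's F statistic. The confidence intervals are built on these errors with the t distribution. Both restate the test and are no separate measure of spread. Floors of 3 counts cover counting error only. Kilobases are exon unions of GENCODE M21.

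Same-numbered libraries share a label prefix and deviated together from their group means (Pearson's r 0.495 to 0.569 in 6 pairs of groups, across genes, which are not independent), so the numbers pair the libraries, and members whose call changes with the block are named with the blocked call. Replicates differed beyond sampling noise (mean chi-square 9.30 to 13.3 per gene). The other settings were the replicate block, RLE factors, DESeq2 1.42.0, no filter, the 4 libraries of a comparison alone and leaving out each library. Members, lists and tests were chosen with earlier results of these data known. All members are named, and up to 4 called genes of the largest change per comparison were eligible from each other list.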

Additional observations from a re-analysis of the deposited data

How the results depend on the processing

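With the replicate block, all genes called numbered 3929 (WEHI-control response), 5205 (WEHI-miR-148a response), 823 (lines unstimulated), 1822 (lines with anti-IgM) and 11 (interaction), against 1925, 3238, 55, 284 and 0 without it, and members called between the lines numbered 3 higher and 6 lower unstimulated, and 3 higher and 13 lower with anti-IgM, against 0, 0, 0 and 3. The block changed no interaction call among the members, and its other changed calls are given with the genes. Without a filter on low counts, 179 genes were called between the unstimulated lines and 450 with anti-IgM, and 6 members were lower with anti-IgM. That setting lost Pfkfb4 and Pfkm in WEHI-control and Slc2a1 in WEHI-miR-148a, and called Hk2 lower in WEHI-control. DESeq2 called 150 genes between the unstimulated lines, 1 gene in the interaction and 6 members lower between the lines with anti-IgM. In WEHI-control it lost Pfkfb4 (adjusted p = 0.175) and Pfkm (0.0864) and called Txnip higher (0.0266). In WEHI-miR-148a DESeq2 lost Slc2a1 (adjusted p = 0.127) and Eno2 (0.0694). With the 4 libraries of a comparison alone, 2 members fell in WEHI-control, and between the lines with anti-IgM 16 genes and 0 members were called. Those fits lost Pdk1, Pfkfb4, Pfkm and Pgam1 in WEHI-control, and Slc2a1, Eno1 and Eno2 in WEHI-miR-148a. With RLE factors the edgeR call of Pkm between the lines with anti-IgM was lost (adjusted p = 0.0506). With Eno1 and Eno1b summed, the Eno1 response in WEHI-miR-148a turned to log2 -0.081. The causes were not tested.

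Leaving out each library in turn gave 540 to 2082 genes in the WEHI-control response, 1481 to 3155 in the WEHI-miR-148a response, 0 to 76 between the unstimulated lines, 0 to 222 with anti-IgM, and 0 to 0 in the interaction. Members rising and falling ranged from 1 to 6 and 0 to 4 in WEHI-control and from 4 to 7 and 5 to 9 in WEHI-miR-148a. Between the lines, members called ranged from 0 to 3 lower with anti-IgM, with 0 in each other direction and condition. Where a group kept 1 library, it was assumed to vary like the other groups. Low counts limit Slc2a3, Slc16a3, Aldoc and Eno2.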
